A study of Mus musculus with 20 samples.

Results

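Hyaluronan, proteoglycan and matrix inhibitor genes were followed in microglia and astrocytes of mice after traumatic brain injury. The 10 genes of the group were picked by symbol for what their proteins do, with earlier results of these data known. All 10 had a row among the 39017 genes in the count table. They were *Cd44*, a cell surface receptor for hyaluronan, *Has2*, a hyaluronan synthase, the lecticans *Ncan*, *Bcan* and *Vcan*, the link protein gene *Hapln1*, *Tnc*, which codes for tenascin C, and the tissue inhibitors of metalloproteinases *Timp1*, *Timp2* and *Timp3*. RNA came from adult male C57BL/6 mice, C57BL/6J in the methods of the study, 7 days after a lateral fluid percussion injury (FPI) or a sham procedure. Sham mice had the same craniectomy, anesthesia and connection to the device but received no fluid pulse, so the effects of the opened skull were shared by both conditions. Cells were sorted from the whole forebrain on the injured side, microglia by CD11b with intermediate CD45 and astrocytes by ACSA-2, and each library came from the cells of a single animal. There were 5 libraries of sham microglia, 5 of FPI microglia, 5 of sham astrocytes and 5 of FPI astrocytes. FPI astrocyte replicates 2 and 5 carry the same animal number. Except where they were summed, the tests took these libraries as independent. The 3 animals whose numbers appear among both the microglia and the astrocyte library names carried different replicate numbers in the 2 cell types.

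The brain has little collagen, and its matrix is built on hyaluronan, a long sugar chain that is extruded through the cell membrane by hyaluronan synthases. Lecticans are chondroitin sulfate proteoglycans that bind hyaluronan at one end and tenascins at the other, and link proteins such as Hapln1 clamp the lectican to the chain. The mesh surrounds synapses and, in its densest form, the perineuronal nets, and proteoglycans and tenascin C are well-known parts of glial scars. Metalloproteinases cut these proteins, and TIMPs block the metalloproteinases.

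Promoter sequences were available from RefSeq on GRCm38.p6 for 9 of the 10 genes. The 250 bases before the start are shown for *Cd44*, the member that passed the test after FPI, and for *Timp1* and *Timp2*, which were picked after their levels were seen because they stood at the bottom and the top of the microglial range. Capitals mark CG dinucleotides, and each sequence is written in the direction of transcription.
Cd44, chr2:102901666-102901915, minus strand: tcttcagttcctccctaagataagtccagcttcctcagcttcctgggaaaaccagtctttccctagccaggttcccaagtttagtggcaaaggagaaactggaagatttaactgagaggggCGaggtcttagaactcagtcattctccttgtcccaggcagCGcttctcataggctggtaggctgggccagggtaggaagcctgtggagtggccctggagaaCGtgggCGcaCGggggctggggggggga
Timp1, chrX:20869916-20870165, plus strand: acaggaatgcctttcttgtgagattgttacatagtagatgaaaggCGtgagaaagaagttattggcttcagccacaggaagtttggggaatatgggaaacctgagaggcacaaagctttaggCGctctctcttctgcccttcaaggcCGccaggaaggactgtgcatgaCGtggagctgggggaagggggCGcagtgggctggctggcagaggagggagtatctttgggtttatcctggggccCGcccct
Timp2, chr11:118355412-118355661, minus strand: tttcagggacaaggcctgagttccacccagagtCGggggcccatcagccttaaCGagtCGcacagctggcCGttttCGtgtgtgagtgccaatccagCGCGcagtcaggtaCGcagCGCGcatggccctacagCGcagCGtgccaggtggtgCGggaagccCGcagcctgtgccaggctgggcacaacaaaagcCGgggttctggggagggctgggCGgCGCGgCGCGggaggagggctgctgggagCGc
The *Timp2* stretch held 21 CG dinucleotides, the *Timp1* stretch 6 and the *Cd44* stretch 5, against a median of 6 over all 32851 promoters. On both strands, the window of 300 bases that reaches 50 bases past the start was searched for an AP-1 motif (TGACTCA or TGAGTCA) and a STAT motif (TTCNNNGAA). Neither was present in any window of the 9 genes, and 5.2% of all promoters held the AP-1 motif and 8.3% the STAT motif. The absence says only that these letters were not in these windows.

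Libraries held between 5623349 and 13110857 counts on genes. Levels are given as CPM, read counts scaled to a common library size with the TMM factors of all 20 libraries. Differences between conditions are log2 fold changes from edgeR's quasi-likelihood test on the counts. Calls required an adjusted p (Benjamini-Hochberg, over all genes tested) below 0.1 and a log2 fold change of more than 0.6 in either direction. All 8 microglial markers were called higher in microglia and all 8 astrocyte markers higher in astrocytes, with log2 differences of at least 7.26 and 4.45 in size. The sorted astrocytes also carried markers of other cells, with 8 pericyte markers summing to between 405 and 9833 CPM and 8 oligodendrocyte markers to between 1678 and 18050 CPM. The 8 astrocyte markers summed to as much as 30140 CPM in FPI astrocyte replicate 1 and as little as 9688 CPM in sham astrocyte replicate 4. FPI astrocyte replicate 5 bears a microglial suffix in its library name and shares its animal number with FPI astrocyte replicate 2. Its 8 microglial markers summed to 158 CPM, far from the 16940 CPM or more of the microglia, and it was kept under its label. In sorted pools, fewer cells of a type and less RNA per cell cannot be told apart.

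**Figure D1:**
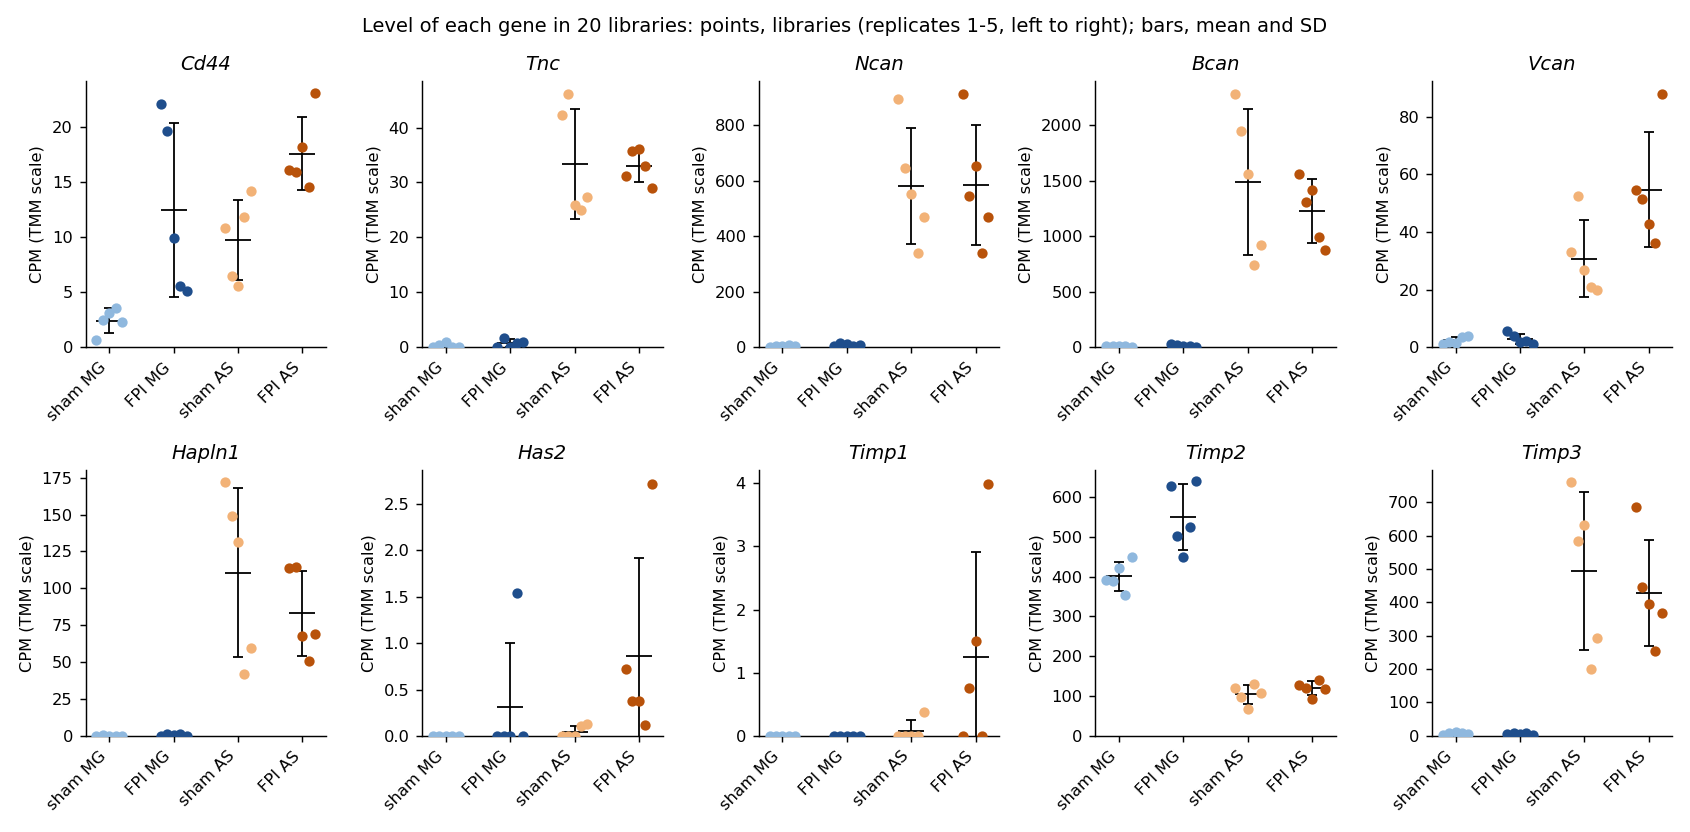
Level of each of the 10 genes in CPM (TMM scale, linear axes) in the 20 libraries of sham and FPI microglia (MG) and astrocytes (AS). Points are libraries, horizontal bars are group means and whiskers are SDs. *Timp2* was the only gene of the group that was higher in microglia than in astrocytes, and *Cd44* separated FPI from sham libraries in both cell types.

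The first question was which cell type carried each gene. All 8 members that passed the filter on low counts in the fit of the 20 libraries differed between the cell types, 7 of them lower and *Timp2* higher in microglia. That fit called 64.2% of all genes tested, 27.1% higher and 37.2% lower in microglia, so a call by itself did not set the members apart. The size of the differences was more informative. *Hapln1* was lower in microglia by 8.30 on the log2 scale, and *Bcan*, *Ncan*, *Timp3* and *Tnc* had log2 differences of -6.92, -6.60, -6.17 and -6.08. *Vcan* differed less (-3.98) and *Cd44* least (-1.24, SE 0.30, adjusted p = 8.52e-04). *Timp2* was higher in microglia by 2.07 (SE 0.12, adjusted p = 1.90e-12). The median over the 8 members was -6.12, beside -0.13 over all genes. *Has2* and *Timp1* were under the filter.

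Per kilobase of exon, *Bcan* stood first in sham astrocytes, with 367 ± 162 CPM per kb (SD, n = 5), and its libraries did not overlap those of *Ncan* at 80.7 ± 28.9. *Ncan*, *Timp3* (60.6 ± 29.1), *Timp2* (26.8 ± 6.23) and *Hapln1* (18.8 ± 9.66) followed, and each overlapped the next in line. A gap then separated *Hapln1* from *Tnc* (4.29 ± 1.29), *Vcan* (2.12 ± 0.92) and *Cd44* (1.44 ± 0.54), which again overlapped in turn. *Timp1* and *Has2* came last with means of 0.0854 and 0.0108 CPM per kb. In sham microglia the order was led by *Timp2* at 103 ± 9.28 CPM per kb, with every other gene at or below *Bcan* (2.19 ± 1.04). The astrocyte order held the same first 8 places in FPI libraries. In FPI microglia *Cd44* moved from the fifth place to the third, and it overlapped its neighbours *Bcan* and *Ncan* there.

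Low levels of the astrocyte genes in microglia were read against the astrocyte markers in the same libraries. In sham microglia the 8 astrocyte markers stood at between 0.556% and 4.08% of their own level in sham astrocytes, with a median of 0.88%. *Ncan* (0.704%), *Bcan* (0.597%), *Tnc* (0.869%) and *Timp3* (1.46%) stood within that range. *Hapln1* was below it, at 0.0926%. *Vcan* was above it at 7.65%, and *Cd44* was well above it at 24.7%. The share of astrocyte RNA that these values may contain was not separated from microglial transcripts.

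*Cd44* rose in microglia after FPI. Sham microglia held 0.625, 2.49, 3.14, 3.52 and 2.27 CPM in replicates 1 to 5, and FPI microglia held 22.1, 19.6, 9.88, 5.55 and 5.12 CPM. Each FPI library was above each sham library, and replicates 1 and 2 were the highest of the FPI group. On the log2 scale the rise was 2.38 (SE 0.48, adjusted p = 0.00959). *Cd44* was the only one called of the 6 members tested in microglia, where 2.35% of all genes tested were called, and the only one of the 6 with no overlap between conditions, which held for 3.43% of all genes tested.

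The size of the *Cd44* difference varied with the series of microglia libraries. Replicates 1 to 3 carry the suffix M in their names and replicates 4 and 5 the suffix J-A, in both conditions. Within the M series the log2 fold change was 3.02 (adjusted p = 0.00458), and it was 0.92 (SE 0.75, adjusted p = 0.704) in the J-A series, which has 2 libraries per condition, and the difference between the series was not tested. With a term for the series it was 2.22 (adjusted p = 0.0150). Markers of monocytes and border macrophages also differed between the series. Their 8-gene sum was 374, 251 and 356 CPM in the sham M libraries and 223, 164 and 118 CPM in the FPI M libraries, and 18.7 to 56.5 CPM in the J-A libraries of either condition. *Mrc1* and *Cd163*, genes of border macrophages, made up most of that sum by their group means. Of the monocyte markers on the list, *Ly6c2* had no read in any microglia library and *S100a4* none in FPI microglia. *Ccr2*, the chemokine receptor of inflammatory monocytes, was 2.38 to 6.72 CPM in sham and 2.92, 9.24, 6.26, 0.154 and 5.25 CPM in FPI replicates 1 to 5. *Plac8* had 0.227 CPM in a single sham library and 2.37 and 2.31 CPM in FPI replicates 2 and 5, with 0.154 CPM or less in the other 3. FPI replicate 2, the second highest in *Cd44*, was the highest in both genes, and FPI replicate 1, the highest in *Cd44*, in neither. The 8-gene sum put FPI replicates 1 to 3 above 4 and 5, as *Cd44* did, and was higher in the sham than in the FPI M libraries. Astrocyte markers in FPI microglia summed to 558, 592, 359, 294 and 283 CPM in replicates 1 to 5, the same ranking of the first 3 replicates over the last 2 as for *Cd44*. In FPI microglia *Cd44* stood at 70.9% of its level in FPI astrocytes, and the 8 astrocyte markers at between 1.04% and 5.13% of theirs. The part of monocytes, of border macrophages or of astrocyte RNA in the *Cd44* values was not tested.

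In astrocytes *Cd44* moved the same way without passing the test. Sham astrocytes held 10.8, 6.44, 5.54, 11.8 and 14.2 CPM, and FPI astrocytes held 16.1, 15.9, 18.2, 14.6 and 23.0 CPM. The conditions did not overlap, although sham replicate 5 and FPI replicate 4 were close, and this held for 0.713% of all genes tested. The log2 fold change of 0.88 (SE 0.27) had an unadjusted p of 0.00756 and an adjusted p of 0.999 in edgeR. It was 0.74 without FPI replicate 5. In the fit of both cell types the effect of FPI was larger in microglia by 1.51 on the log2 scale, with an adjusted p of 0.592. None of the 8 members tested for such a difference was called by edgeR, 1 had an unadjusted p below 0.05, and 0.199% of all genes were called, so a difference between the cell types was not detected.

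**Figure D2:**
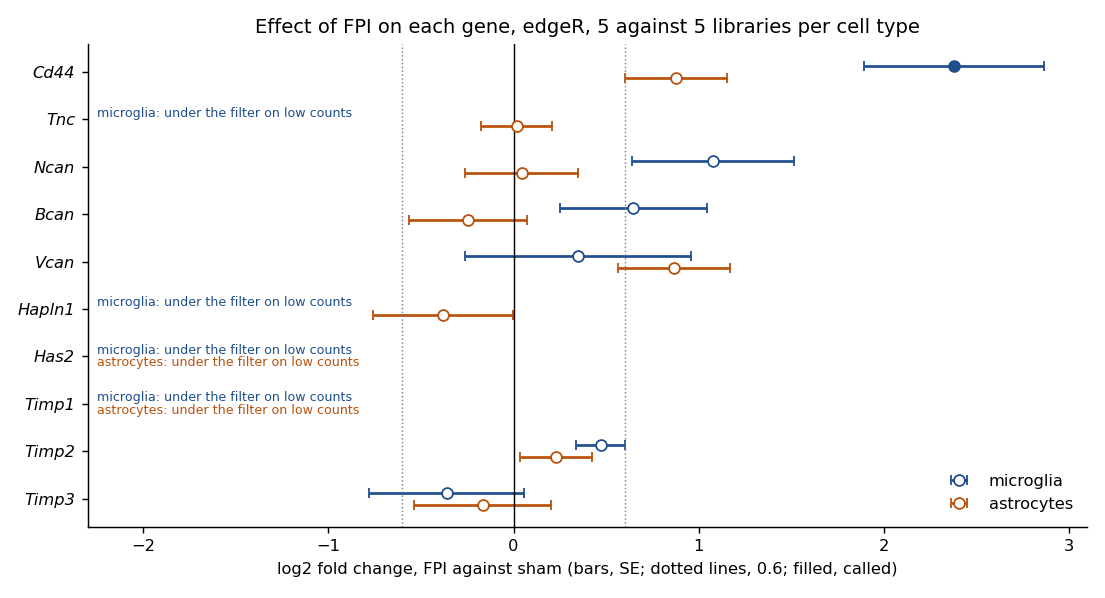
Log2 fold change of FPI against sham for each gene in microglia (blue) and astrocytes (orange), 5 against 5 libraries. Whiskers are SEs, dotted lines mark the 0.6 threshold and filled points are called genes. *Cd44* in microglia, at 2.38, is the only filled point.

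No member passed the test in astrocytes, where 0.00728% of all genes tested were called, a single gene. Other settings called more genes in astrocytes, 39 by DESeq2, 11 with a term for the replicate number and 53 with all 20 libraries fitted, but no member. None of the 8 astrocyte markers, *Gfap* among them, was called in the separate astrocyte fit. The lack of a call therefore does not show that a gene was unchanged. Of the 8 members tested, *Cd44* and *Vcan* had an unadjusted p below 0.05, DESeq2 called none, and the median log2 fold change was 0.03, beside -0.01 over all genes. In microglia the median over the 6 members tested was 0.56, beside -0.01 over all genes. It was 1.23 in the M series alone and 0.0753 in the J-A series alone.

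*Has2* makes long hyaluronan chains, and its transcript was close to the limit of these libraries. In sham astrocytes it had 0 reads in replicates 1 to 3 and 0.103 and 0.126 CPM in replicates 4 and 5. FPI astrocytes held 0.721, 0.376, 0.374, 0.117 and 2.72 CPM. Replicate 5 was far above the other 4, and replicate 4 lay inside the sham range. Summed over libraries there were 31 reads after FPI and 2 after sham, a ratio of 17.9 (95% exact interval for counting error only, 4.55 to 154). Without FPI replicate 5 the ratio was 9.6 (2.2 to 87.0). An exact permutation test of the CPM values, two-sided, gave p = 0.0159, where 0.00794 was the smallest p possible. It was computed for all 10 members in both cell types, 20 cases, is printed only for members under the filter, and was not adjusted. In microglia *Has2* had no read in any library but FPI replicate 4, with 1.54 CPM. A count of 0 allowed up to 3 reads, or 0.568 CPM in the shallowest sham microglia library.

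*Ncan*, the gene of neurocan, and *Bcan*, the gene of brevican, were the most abundant lecticans and did not change with FPI in a way that passed the test. *Ncan* in sham astrocytes was 893, 647, 552, 341 and 470 CPM, and in FPI astrocytes 914, 546, 654, 341 and 470 CPM. Replicate 1 was highest and replicate 4 lowest in both conditions, and the ranges covered one another. FPI and sham differed by 0.04 on the log2 scale (SE 0.31, adjusted p = 0.999). *Bcan* was 2286, 1947, 1559, 738 and 921 CPM in sham astrocytes and 1563, 1305, 1419, 993 and 872 CPM in FPI astrocytes. The FPI values lay within the sham range, with a log2 difference of -0.24 (SE 0.32, adjusted p = 0.999).

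In microglia *Ncan* was 2.25, 3.88, 4.93, 6.92 and 2.46 CPM in sham libraries and 3.15, 14.4, 11.9, 5.24 and 8.45 CPM in FPI libraries. Only FPI replicates 2, 3 and 5 were above the sham range. The log2 fold change of 1.08 (SE 0.44) had an adjusted p of 0.312. *Bcan* ran from 4.92 to 13.7 CPM in sham and from 4.87 to 24.5 CPM in FPI microglia, with a log2 difference of 0.65 (SE 0.40, adjusted p = 0.625) that was -0.53 within the J-A series. The 7 astrocyte markers tested in microglia had log2 fold changes of 0.03 (*Slc1a3*) to 2.78 (*Gfap*, adjusted p = 0.00772), and no other was called. *Gfap*, an intermediate filament gene, was also higher in FPI than in sham astrocytes, at 849 against 219 CPM. In FPI microglia *Ncan* stood at 1.47% and *Bcan* at 1.12% of their level in FPI astrocytes, within the 1.04% to 5.13% of the 8 markers. The part of astrocyte RNA in these values was not tested.

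*Vcan* codes for versican, a lectican that oligodendrocyte precursors and fibroblasts also make. Sham astrocytes held 33.1, 52.6, 27.0, 21.04 and 19.7 CPM, and FPI astrocytes held 54.7, 51.6, 42.9, 36.3 and 88.0 CPM. FPI replicate 5 was the highest of the 10, and sham replicate 2 was above 3 of the FPI libraries. The log2 fold change was 0.87 (SE 0.30, unadjusted p = 0.0135, adjusted p = 0.999), and 0.60 without FPI replicate 5. Within replicates 1 to 3 it was 0.44 and within replicates 4 and 5 it was 1.61, neither of which passed the test. In microglia *Vcan* had a log2 fold change of 0.35 (SE 0.61), with values of 1.25 to 3.79 CPM in sham and 1.15 to 5.603 CPM in FPI libraries, and without FPI replicate 1 it was -0.05.

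Some markers of the cells known to make versican had their highest values in FPI astrocyte replicate 5. *Gpr17*, a receptor of committed oligodendrocyte precursors, was at 202 CPM there and between 8.60 and 20.03 CPM in the other FPI astrocyte libraries, all above the 0.61 to 4.93 CPM of sham astrocytes, although the difference was not called (adjusted p = 0.828). *Neu4*, another marker on the precursor list, was at 23.6 CPM in replicate 5, at 0.997 to 4.43 CPM in the other FPI libraries and at 0.126 CPM or less in sham astrocytes. *Pdgfra*, which marks precursors and fibroblasts, was at 97.3 CPM in replicate 5, 15.9 to 36.6 CPM in the other FPI libraries and 4.78 to 25.02 CPM in sham libraries. *Col1a1*, a fibroblast collagen, was at 166 CPM in replicate 5, 47.8 to 83.3 CPM in the other FPI libraries and 23.1 to 55.97 CPM in sham libraries. The summed precursor markers were not highest in replicate 5, with 587 CPM in that library and 599 CPM in FPI replicate 4. The 8 oligodendrocyte markers summed to 3262 CPM in replicate 5 and to 6223 to 11360 CPM in the other FPI astrocytes. In sham astrocytes the oligodendrocyte sum ran from 1678 to 18050 CPM. *Olig1*, a transcription factor of the lineage, was at 105 CPM in replicate 5 and at 102 to 208 CPM in FPI replicates 1 to 4. *Sox10* and *Olig2*, also on the precursor list, were not highest in replicate 5, the shallowest library of the FPI astrocytes. Before scaling, *Sox10* had 698 reads in replicate 5 and 859 to 2441 in replicates 1 to 4. *Olig2* had 247 in replicate 5 and 303 to 588 in replicates 1 to 4. With 3 reads worth 0.479 CPM in replicate 5 and 0.374 CPM in replicate 3, both genes were lower in replicate 3 on the CPM scale. *C1ql1* of the same list had its most reads in replicate 5, with 52, and at most 29 in replicates 1 to 4. The sum of 8 fibroblast markers was 887 CPM in that library and 173 to 391 CPM in the other FPI astrocytes. The 8 pericyte markers summed to 9833 CPM in that library, to 405 to 5638 CPM in the other FPI astrocytes and to 1380 to 7256 CPM in sham astrocytes. The part that precursors, oligodendrocytes, fibroblasts or pericytes played in the *Vcan*, *Has2*, *Timp1* and *Cd44* values of the FPI astrocytes was not tested.

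**Figure D3:**
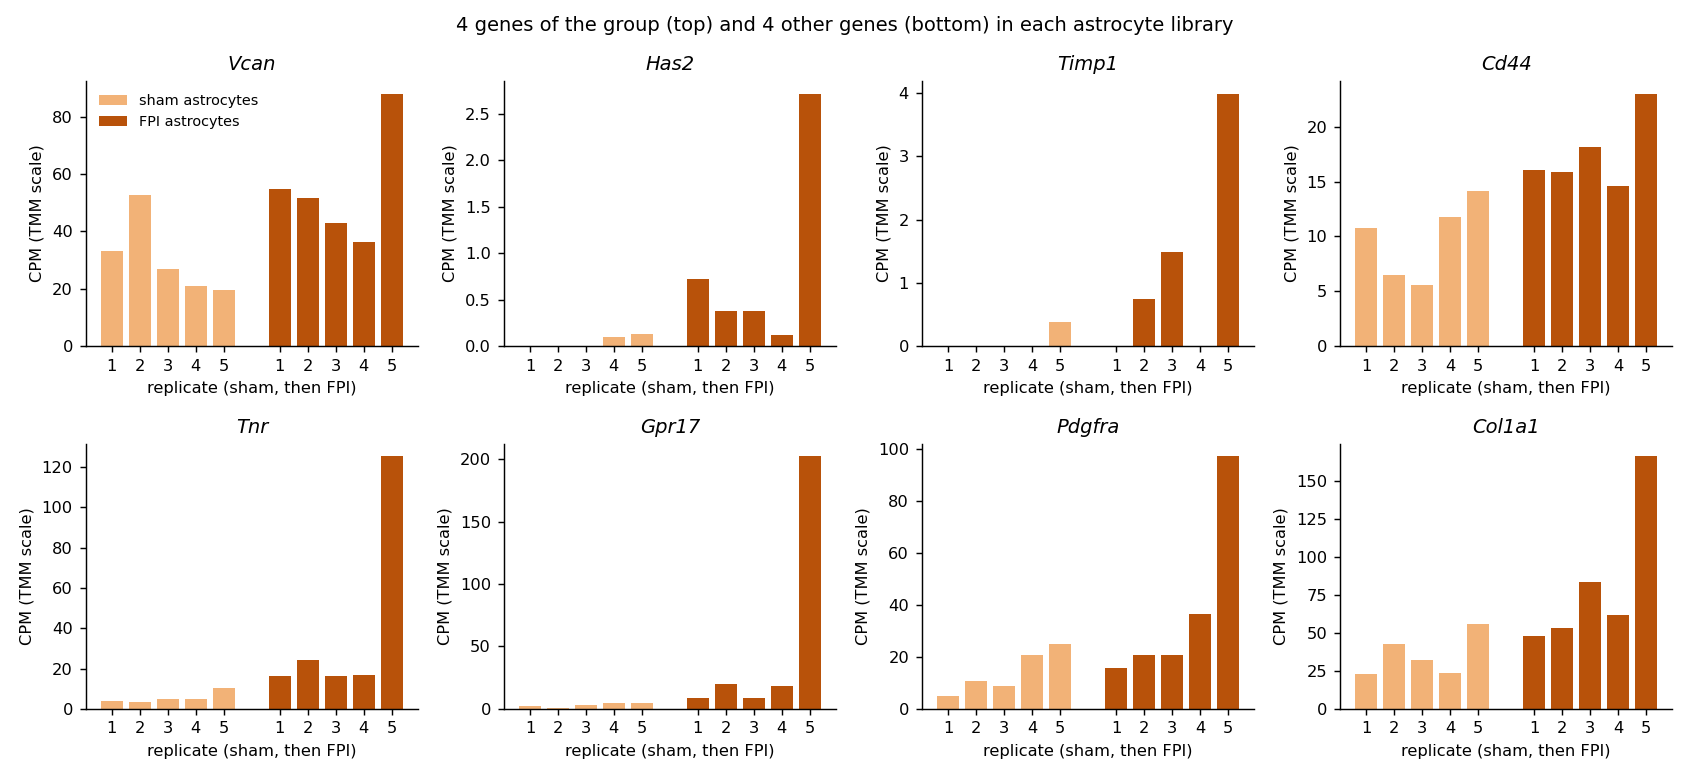
CPM (TMM scale, linear axes) of *Vcan*, *Has2*, *Timp1* and *Cd44* (top) and of *Tnr*, *Gpr17*, *Pdgfra* and *Col1a1* (bottom) in each sham (light) and FPI (dark) astrocyte library. Bars are single libraries. FPI replicate 5 is the highest of the 10 libraries in all 8 panels.

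*Hapln1* was an astrocyte gene in these libraries. Sham astrocytes held 172, 149, 132, 41.9 and 59.4 CPM, and FPI astrocytes held 114, 114, 67.5, 50.7 and 68.9 CPM. The first 3 sham replicates were above every FPI library, and the other 2 lay within or under the FPI range. FPI and sham astrocytes differed by -0.38 on the log2 scale (SE 0.38, adjusted p = 0.999), and by 0.24 within replicates 4 and 5. In microglia it was found in 1 of 5 sham and 3 of 5 FPI libraries, at 1.25 CPM or less.

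*Tnc* had the smallest coefficient of variation of the 8 tested members in FPI astrocytes, 9.03%. Sham values were 42.2, 46.2, 25.9, 24.9 and 27.4 CPM, and FPI values were 31.2, 35.7, 36.1, 32.98 and 29.1 CPM. All 5 FPI libraries fell in the gap between the 3 low and the 2 high sham libraries. Their log2 fold change was 0.02 (SE 0.19, adjusted p = 0.999) and changed sign under several settings. In microglia *Tnc* had reads in 2 of 5 sham and 3 of 5 FPI libraries, up to 1.75 CPM.

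*Timp3*, whose protein stays bound to the matrix, was the most abundant inhibitor of astrocytes. It was 759, 585, 632, 200 and 292 CPM in sham and 684, 445, 394, 255 and 367 CPM in FPI astrocytes. Replicates 4 and 5 were the lowest in both conditions, and the log2 fold change was -0.17 (SE 0.37, adjusted p = 0.999). In microglia it ranged from 3.75 to 11.8 CPM in sham and from 1.92 to 9.24 CPM in FPI libraries, with a log2 difference of -0.36 (SE 0.42, adjusted p = 0.851).

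The spread of *Ncan*, *Timp3* and *Hapln1* among astrocyte libraries was smaller relative to the astrocyte markers, a comparison added after the values had been seen, in which gene and markers share the depth and cell makeup of each library. *Slc1a2* was the largest part of the summed markers in every astrocyte library, at 49115 to 179125 reads, with *Slc1a3* next at 15074 to 57531. Divided by the summed markers of the same library, *Ncan* had a coefficient of variation of 15.2% in sham and 7.86% in FPI astrocytes, in place of 35.8% and 37.0% in CPM. *Timp3* went from 48.1% to 14.2% and from 37.0% to 5.69%, and *Hapln1* from 51.5% to 18.8% and from 35.1% to 20.1%. *Bcan* went from 44.2% to 11.3% in sham astrocytes but only from 23.6% to 21.4% in FPI astrocytes. The ratio did not tighten *Cd44*, whose coefficient went from 37.5% to 73.9% and from 18.9% to 38.6%, nor *Timp2*, which went from 23.3% to 68.2% and from 14.8% to 46.8%. *Tnc* went from 30.2% to 31.4% and from 9.03% to 35.3%, and *Vcan* from 43.5% to 34.0% in sham but from 36.6% to 50.7% in FPI astrocytes. *Ncan* amounted to 2.92% ± 0.45 of the summed markers in sham and 3.1% ± 0.24 in FPI astrocytes (SD, n = 5). *Timp3* amounted to 2.33% ± 0.33 and 2.28% ± 0.13.

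**Figure D4:**
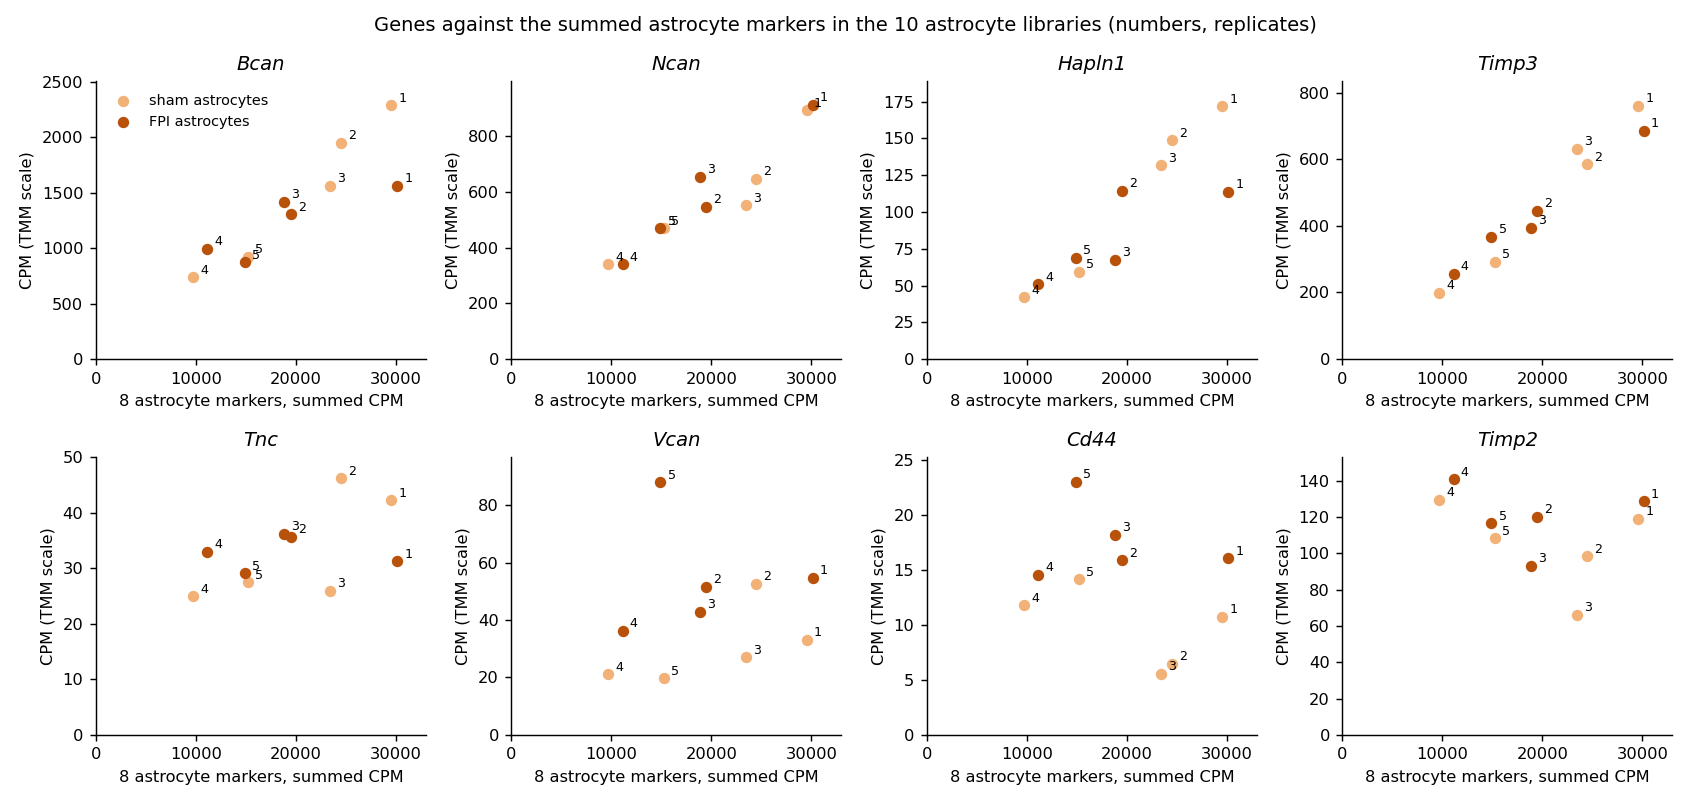
CPM (TMM scale) of 8 genes against the sum of 8 astrocyte markers, on the same scale, in the 10 astrocyte libraries, sham light and FPI dark, with replicate numbers. *Bcan*, *Ncan*, *Hapln1* and *Timp3* are at or next to their lowest level in sham replicate 4, which has the smallest sum (9688 CPM), and *Cd44* and *Timp2* are not.

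*Timp2* inhibits metalloproteinases and also takes part in the activation of *Mmp2* product at the cell surface. It was 391, 390, 423, 354 and 449 CPM in sham microglia and 628, 501, 448, 526 and 640 CPM in FPI microglia. FPI replicate 3 lay just under the highest sham library, and the other 4 FPI libraries were above all sham libraries. The log2 fold change of 0.47 (SE 0.13, adjusted p = 0.0837) passed the p threshold and stayed under the fold threshold, so the gene was not called. Fitted with all 20 libraries its adjusted p was 0.292, and over all settings it ran from 0.0149 to 0.292. In astrocytes *Timp2* was 119, 98.5, 66.2, 130 and 108 CPM in sham and 129, 120, 93.1, 141 and 116 CPM in FPI libraries, which overlapped, with a log2 difference of 0.23 (SE 0.19, adjusted p = 0.999). Reads of *Timp2* and of *Cep295nl*, a gene on the same strand that overlaps it, were counted as the authors' table splits them.

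*Timp1*, a secreted inhibitor well known as inducible in injured tissue, was absent from the microglial reads. All 10 microglia libraries had 0 counts, which allowed at most 0.568 CPM in sham and 0.462 CPM in FPI libraries. Sham astrocytes had 0 reads except for replicate 5, with 0.379 CPM. FPI astrocytes held 0, 0.751, 1.495, 0 and 3.99 CPM. The 3 FPI libraries with reads were above all sham libraries, and replicates 1 and 4 were level with the sham libraries at 0. Over all libraries there were 43 reads after FPI and 3 after sham, a ratio of 16.5 (95% exact interval for counting error only, 5.29 to 83.3), and 8.23 (2.4 to 43.6) without FPI replicate 5. The exact permutation test, two-sided, gave p = 0.167. *Timp1* lies inside *Syn1* on the opposite strand, and *Timp3* inside *Syn3*, also on the opposite strand. Over all libraries *Syn1* had 1132 reads and *Syn3* had 446. The strand setting of the counting was not given in the sources used here. Only whole gene spans were compared, not exons, so how far reads of these pairs were mixed was not tested.

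Among the 3 animals sampled for both cell types, *Cd44* was higher in the microglia than in the astrocytes of the FPI animal, at 22.1 and 18.2 CPM. In the 2 sham animals it was lower in microglia, at 2.49 against 11.8 CPM and 3.14 against 14.2 CPM. *Timp2* was higher in microglia in each of the 3 animals, with 628, 390 and 423 CPM against 93.1, 130 and 108 CPM.

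The other genes of the pathway were described with 6 lists of 69 genes in all. In microglia 42 of them were tested and 1 was called, beside 2.35% of all genes, and the median log2 fold change was 0.01. The called gene was *Cspg4*, the NG2 proteoglycan of oligodendrocyte precursors and pericytes, with a log2 difference of 2.29 (SE 0.55, adjusted p = 0.0349). Its level was 0.758 to 2.50 CPM in sham microglia and 2.18 to 14.8 CPM in FPI microglia, with FPI replicate 1 the highest and replicate 5 within the sham range. It was no longer called without FPI replicate 1, without sham replicate 2 or in the fit of all 20 libraries. In the same libraries the 8 pericyte markers summed to 60.7 CPM in FPI replicate 1, to 35 CPM or less in the other FPI microglia and to 50.5 CPM in sham replicate 1, which held 1.38 CPM of *Cspg4*, and 7 precursor markers to 11 CPM or less. *Adam9*, a membrane protease, had a log2 fold change of 0.51 (adjusted p = 0.0686), under the fold threshold.

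In astrocytes 55 of the 69 genes were tested and none was called by edgeR. An unadjusted p below 0.05 was found for 4 of them, beside 319 of all 13741 genes tested. The median was 0.09, beside -0.01 over all genes. The 4 were *Tnr*, *Mmp2*, *Dcn* and *Chst12*, named after their values were seen except for *Tnr*. *Tnr*, the tenascin that crosslinks lecticans in perineuronal nets, held 16.3, 24.4, 16.2, 17.0 and 125 CPM in FPI astrocytes and 3.48 to 10.4 CPM in sham astrocytes. The conditions did not overlap for *Tnr*, nor for *Mmp2* and *Chst12*, which held for 0.713% of all genes tested. The log2 fold change of *Tnr*, 2.88 (SE 0.63), had an adjusted p of 0.589. *Mmp2*, gelatinase A, had a log2 fold change of 1.18, *Dcn*, which codes for decorin, 1.12, and *Chst12*, a chondroitin sulfotransferase, -0.73, each with an adjusted p of 0.999.

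Between the cell types 46 of 58 tested genes were called, 10 higher and 36 lower in microglia, beside 64.2% of all genes called, 27.1% higher and 37.2% lower. Their median was -2.77, beside -0.13 over all genes. All 8 tested genes of the list of other lecticans, link proteins and proteoglycans were lower in microglia. The remaining TIMP gene, *Timp4*, was 26.9 to 106 CPM in sham and 33.3 to 70.2 CPM in FPI astrocytes, at most 0.336 CPM in microglia, and lower in microglia by 9.35 on the log2 scale. *Mmp14*, a membrane metalloproteinase, was found in both cell types, at 39.6 to 58.4 CPM in sham microglia and 53.6 to 200 CPM in sham astrocytes. Among the genes of smallest p in their lists, *Adam17* (2.68) and *Adam10* (1.85), membrane proteases that shed receptors, *Mmp2* (3.32) and the sulfotransferase gene *Chst7* (3.83) were higher in microglia on the log2 scale. *Lyve1*, a hyaluronan receptor and a marker of border macrophages, was higher by 6.91, at 9.86 to 16.9 CPM in the sham M series and at 0.681 to 1.71 CPM in the sham J-A series. Its mean in microglia was 8.56 CPM in sham and 2.28 CPM in FPI libraries, a difference that was not called in the main fit. *Acan*, the gene of aggrecan, and *Hapln4* were under the filter, at 1.76 CPM or less in every library.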

How the data were processed

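The values were the counts that the authors deposited, whole numbers of reads for each of 39017 Ensembl identifiers with no scaling. Per the labels and the study's methods, RNA of each sorted sample went into stranded total RNA libraries, reads were aligned to mm10 (GRCm38.p6) with HISAT2 2.1.0, and featureCounts stands among the tools listed. The 20 per-sample files matched the combined table.

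Groups came from titles and cell type labels. Separate models for microglia and astrocytes were fitted with R 4.3.3 and edgeR 4.0.16 (default low-count filter, TMM, quasi-likelihood test), and all 20 libraries together for the contrast of cell types and the difference in effect, taking libraries as independent. Adjustment followed Benjamini and Hochberg. The fits were tested on simulated data. Exon lengths and overlaps came from GENCODE M21, which held 37607 identifiers, and promoters from RefSeq. Named genes were the 10 members, called pathway genes of smallest p (up to 4 per list), *Tnr*, *Acan*, *Timp4*, *Cspg4*, *Mmp14*, *Hapln4*, and markers that moved with a member. The members and lists were chosen with earlier results of these data known. Alternatives were DESeq2 1.42.0, RLE factors, other filters and thresholds, robust empirical Bayes, a replicate block, terms for library series, summed FPI astrocyte replicates 2 and 5, leaving out libraries, and each series alone, an alternative added after the values were seen. Figures were drawn with matplotlib 3.10.9, and exact tests used scipy 1.17.1 under Python 3.11.15.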

Additional observations from a re-analysis of the deposited data

Results flagged for a closer look

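In 37 sets of 5 libraries with reads of a member, 4 held a library far from the others by Dixon's criterion. It flags about 1 in 20 sets of normally distributed values by chance. A set with reads in a single library is always flagged, as its other values are all 0, so that rate does not apply to it. All the flagged sets below but the first were of this kind. *Has2* was 2.72 CPM in FPI astrocyte replicate 5, with the next library at 0.721 CPM. *Has2* was 1.54 CPM in FPI microglia replicate 4, from 10 reads, and 0 in the other 4. *Timp1* was 0.379 CPM in sham astrocyte replicate 5, from 3 reads, and *Hapln1* was 0.512 CPM in sham microglia replicate 2, with no read in the other libraries of either set.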

How the results depend on the processing

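The count of members called in microglia was 1 and became 0 under a filter of 10 counts or more per library, since *Cd44* was then not tested, 0 in the J-A series alone and 2 with no minimum fold change, *Timp2* being the second. *Cd44* kept its call in 18 of the 19 settings in which it was tested, with log2 fold changes of 0.92 to 3.02, and was called without each library in turn. The count stayed at 1 without each library in turn. Of the members compared between the cell types, 4 were tested and called under the filter of 10 counts, in place of 8. Pathway genes called in microglia numbered 2 with every gene kept, 0 with at least 10 counts, 4 in the M series alone, 0 in the J-A series alone, 2 with no minimum fold change, and 0 to 1 without each library in turn. *Lyve1*, lower after FPI, was among those called with every gene kept (-1.91, adjusted p = 0.0543) and in the M series (-2.06, adjusted p = 0.0255). In astrocytes 1 pathway gene was called with the replicate block (*Tnr*, adjusted p = 0.0191) and 1 with all 20 libraries fitted (*Mmp2*, adjusted p = 0.0997), and between the cell types 16 with at least 10 counts.

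Directions turned for small differences. In microglia *Vcan* was -0.0526 without FPI replicate 1 (-0.0526 to 0.581 without each library in turn) and -1.10 in the J-A series, and *Bcan* -0.53 in the J-A series. In astrocytes *Tnc* was -0.0231 with every gene kept, -0.0135 with all 20 libraries, -0.00094 with FPI replicates 2 and 5 summed and -0.11 in replicates 1 to 3. In replicates 4 and 5 alone *Bcan* was 0.17, *Hapln1* 0.24 and *Timp3* 0.34. Without each astrocyte library in turn *Tnc* ran from -0.0881 to 0.153, *Ncan* from -0.204 to 0.222 and *Timp3* from -0.43 to 0.00911. The causes were not tested.

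No label says that a replicate number marks a shared animal or batch. For this reason the main fits did not pair the samples by number. Same-numbered deviations correlated at -0.0849 to 0.077 in microglia and at 0.287 to 0.532 in astrocytes except for replicate 2, at -0.00488. Replicates 1 and 2 in microglia and replicates 1, 3 and 4 in astrocytes correlated best with their own number, and the others did not. Any structure shared by number in astrocytes was thus not modelled in the main fit. With a replicate block 1 member was called in microglia (*Cd44*, adjusted p = 0.0560) and 0 in astrocytes, where the genes called went from 1 to 11 in all. Libraries of 5623349 to 13110857 counts left *Has2* and *Timp1* near the floor of 3 counts.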
